A study of Mus musculus with 2 samples.

Results

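Genes of DNA replication and DNA repair were compared between marginal zone and follicular B cells of the mouse spleen. The group was a list of 49 named genes, taken by symbol from the probe sets annotated to a single gene, with the brightest measured probe set standing for each gene. Of these, 46 were measured, among 7695 measured genes in all. There were 2 arrays, 1 of marginal zone and 1 of follicular B cells, so the values have no replicate error, a test of the populations is not possible and differences are described by size. Both samples were wild type, from female C57BL/6 mice: spleen cells of 3 animals were enriched with beads against B220 and sorted, marginal zone cells as CD21 high and CD23 intermediate, follicular cells as CD23 high and CD21 intermediate. The sorted cells were pooled, and amplification and biotin labelling started from about 100 ng of their RNA. Whether both populations came from the same animals is not given in the labels.

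Values are scaled MAS5 signals, 1 per probe set and array. Signals at or under 12.7, the median over both scaled arrays, were raised to that floor before a ratio was taken, and a gene was measured when its higher signal exceeded it. Ratios are log2 of marginal zone over follicular signal, and a fold with "at least" has 1 array at or under the floor. Signals of different genes come from different probes and are not compared with each other. Transcripts of the sorting antigens followed the labels: Cr2 (CD21) was at 889.9 in marginal zone and 277.9 in follicular cells, and Fcer2a (CD23) at 89.6 in marginal zone and 726.8 in follicular cells. The sort used these antigens, so they are a check of the labels and not a result. Of 11 B cell marker genes, 10 were measured, and 7 of these were within 2-fold, the brightest (Ptprc, Ms4a1 and Cd22) among them. Past 2-fold were Cr2, Fcer2a and the kinase gene Blk, at 392.5 in marginal zone and 178.7 in follicular cells.

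DNA replication begins when the ring-shaped MCM helicase, loaded on origins in G1, unwinds the duplex. RPA coats the single strands, the clamp loader RFC places the sliding clamp PCNA, and polymerases alpha, delta and epsilon copy the strands, after which flaps are cut and nicks sealed. Mature splenic B cells are mostly quiescent, and many of these proteins also serve repair. In B cells, uracil removal, mismatch repair and end joining process the lesions made at antibody genes during class switching and hypermutation.

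Past 2-fold were 5 of the 46 measured genes, and each of the 5 was lower in marginal zone cells: Fen1, Nbn, Msh6, Parp1 and Rfc1. These 5 make 10.9% of the measured members, and 4.86% of all measured genes were at least 2-fold lower in marginal zone cells. This contrast depended on the floor: with no floor 5 of 46 members stood against 11.3% of all genes, and with the floor at the 25th percentile 5 of 47 members against 12.5%, shares of members no higher than those of the array. On the marginal zone side 0 of 46 members passed 2-fold, against 4.39% of all measured genes. With a threshold of 1.5-fold, 6 members were higher (13.6% of all genes) and 11 lower (15.8%) in marginal zone cells, and with 3-fold 3 were lower (0.871%). The median log2 ratio was -0.15 over the 46 members and -0.03 over all measured genes, and the signal was lower in marginal zone cells for 26 members (56.5%) and for 52.2% of all genes. The median of the members therefore lay close to that of the array, and those past 2-fold all lay on the follicular side. In bulk RNA of sorted cells, fewer cells expressing a gene and less RNA per cell cannot be told apart.

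**Figure D1:**
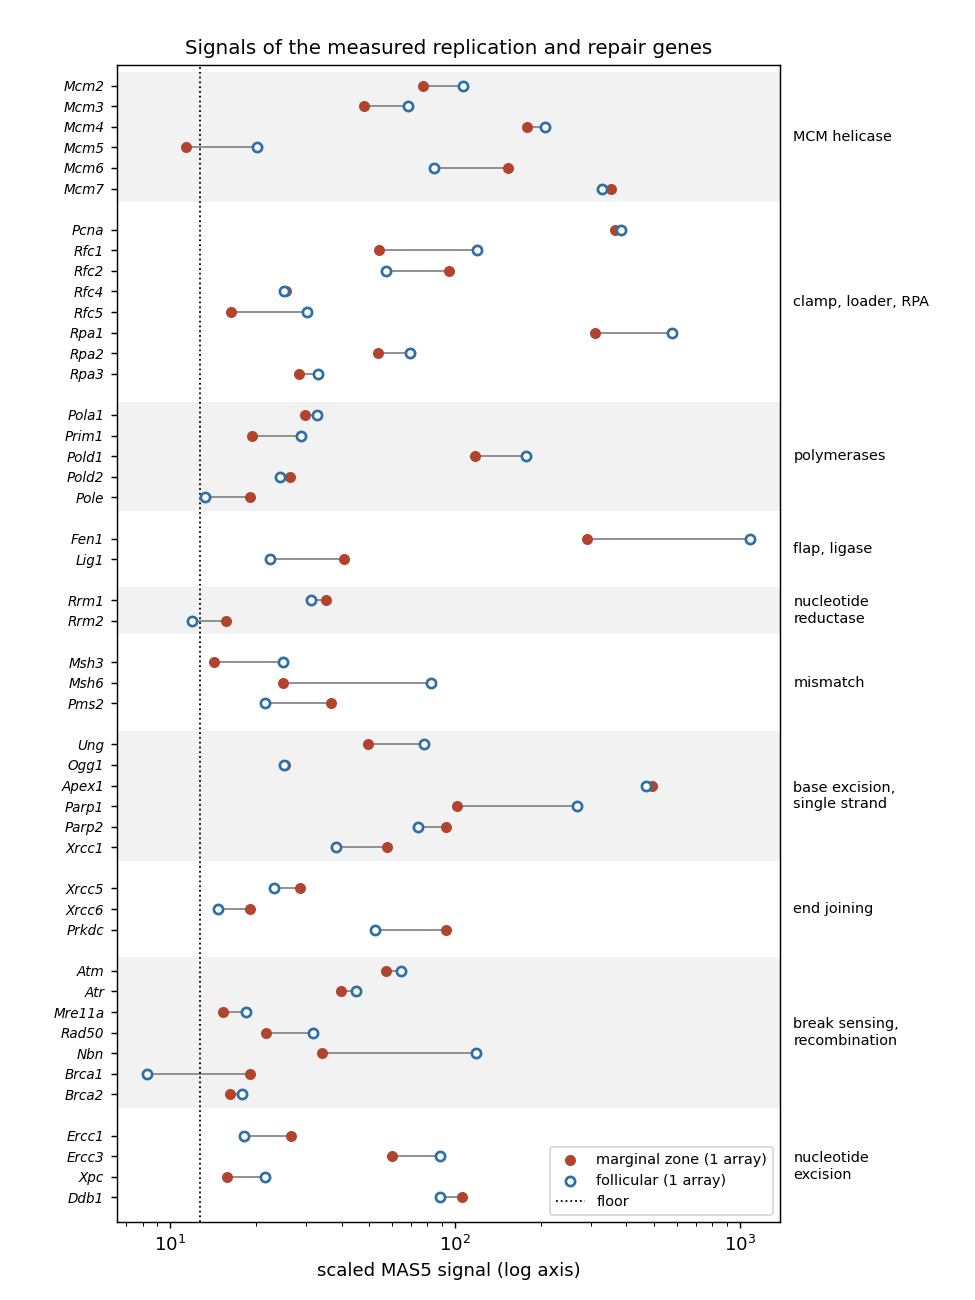
Scaled MAS5 signal on a log axis of the 46 measured genes, grouped by role, with 1 filled point for the marginal zone array, 1 open point for the follicular array and the floor of 12.7 dotted. The longest lines that run to the follicular side belong to Fen1, Nbn, Msh6 and Parp1, and 3 genes (Mcm5, Rrm2 and Brca1) have 1 point under the floor.

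Of the 49 listed genes, 3 had no value. Tdg, a thymine DNA glycosylase, is named only by 3 probe sets that also list 2 of its pseudogenes, so none was taken. Lig4, the ligase of end joining, has 0 probe sets annotated to it alone in the annotation table. The 3 probe sets of Xpa, a damage-recognition protein of nucleotide excision repair, were all under the floor on both arrays, at 2.6 to 5.3 in marginal zone and 0.2 to 8.1 in follicular cells.

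Among the subunits of the MCM helicase, the median was -0.33, with 2 higher and 4 lower in marginal zone cells. Mcm6 was at 154.0 in marginal zone and 84.1 in follicular cells, a log2 ratio of 0.87 and a fold of 1.83; the second probe set gave 0.60. It had the highest ratio of all 46 members. Mcm5 was at 11.4 in marginal zone cells, under the floor, and at 20.1 in follicular cells, at least 1.59-fold lower in marginal zone cells. Mcm3 was at 48.1 in marginal zone and 68.2 in follicular cells (-0.50). Its 5 probe sets ran from -1.70 to 0.50, so its direction depended on the probe set. Mcm2 was at 77.3 in marginal zone and 106.3 in follicular cells by its brighter probe set, a log2 ratio of -0.46. The other probe set of Mcm2, at 36.6 in marginal zone and 81.9 in follicular cells, was at -1.16 and so past 2-fold. Both probe sets of Mcm2 thus had the lower signal in marginal zone cells. Mcm4 was at 178.9 in marginal zone and 206.3 in follicular cells (-0.21), with the other probe set at 0.30. Mcm7 was at 354.3 in marginal zone and 328.4 in follicular cells (0.11), and its 4 probe sets ran from -0.03 to 0.63. The 6 subunits form 1 ring, yet their transcripts did not share a direction in this pair.

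Of the clamp and the single-strand binding proteins, none was higher in marginal zone cells. Pcna, the sliding clamp, was at 363.7 in marginal zone and 381.8 in follicular cells (-0.07), nearly equal. The subunits of RPA, the trimer that protects single-stranded DNA, were all lower in marginal zone cells, as were 52.2% of all measured genes. Rpa1, its large DNA-binding subunit, was at 310.2 in marginal zone and 579.1 in follicular cells, 1.87-fold lower in marginal zone cells, with the other probe set at -0.77. Rpa2 was at 53.5 in marginal zone and 69.4 in follicular cells (-0.37). Rpa3 was at 28.4 in marginal zone and 33.1 in follicular cells (-0.22). No RPA subunit reached 2-fold.

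The clamp loader was split. Rfc1, its large subunit, was at 54.3 in marginal zone and 119.0 in follicular cells, 2.19-fold lower in marginal zone cells, and its 3 probe sets ran from -1.18 to -0.39. With the mean over its probe sets the log2 ratio was -0.90, and with a pseudocount instead of a floor it was -0.97, so Rfc1 was past 2-fold only with the other settings tried. Of the small subunits, Rfc5 was at 16.4 in marginal zone and 30.3 in follicular cells (-0.88). Rfc2 went the other way, at 95.1 in marginal zone and 57.3 in follicular cells (0.73). Rfc4 was at 25.5 in marginal zone and 25.1 in follicular cells (0.03). The large subunit and the small subunits thus spanned the range from 2.19-fold lower to 1.66-fold higher in marginal zone cells.

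Of 5 genes of polymerases and primase, 3 were lower and 2 higher in marginal zone cells, all within 2-fold by the brightest probe set. Pold1, the catalytic subunit of polymerase delta, was at 117.6 in marginal zone and 177.0 in follicular cells (-0.59). Its second probe set gave 45.3 in marginal zone and 100.8 in follicular cells, a log2 ratio of -1.15. Pold2, the second subunit of that polymerase, was at 26.3 in marginal zone and 24.3 in follicular cells (0.12). Polymerase delta copies mainly the lagging strand, and of these subunits Pold1 was lower in marginal zone cells and Pold2 nearly equal. Pole, the catalytic subunit of the leading-strand polymerase, was at 19.0 in marginal zone and 13.2 in follicular cells (0.52), the follicular value close to the floor. Prim1, the primase that starts each fragment, was at 19.4 in marginal zone and 28.8 in follicular cells (-0.57), with its other probe set at -0.99. Pola1, which extends the primers, was at 29.8 in marginal zone and 32.7 in follicular cells (-0.14).

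The largest difference among the members was in the processing of lagging-strand fragments. Fen1, the nuclease that cuts 5′ flaps in replication and in base excision repair, was at 291.7 in marginal zone and 1084.4 in follicular cells, 3.72-fold lower in marginal zone cells. Its second probe set gave 4.8 in marginal zone cells, under the floor, and 36.4 in follicular cells, a log2 ratio of -1.52 against the floor. Of the other measured genes in the whole table, 30 had a ratio as low as Fen1. The brighter probe set carries the suffix by which the array's maker marks probes that can match other transcripts. Lig1, the ligase that seals the nick left after Fen1, went the other way, at 40.6 in marginal zone and 22.4 in follicular cells, 1.81-fold higher in marginal zone cells. These enzymes act on the same fragment end and lay near opposite ends of the members' range.

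Ribonucleotide reductase, which makes deoxyribonucleotides, gave low signals. Its large subunit Rrm1 was at 35.2 in marginal zone and 31.2 in follicular cells (0.17), with a second probe set at -0.42. The small subunit Rrm2, which is made mainly in S phase, was at 15.7 in marginal zone cells and at 11.9, under the floor, in follicular cells, a bound of 1.24-fold on the marginal zone side. Its other 2 probe sets were under the floor on both arrays. Neither population showed a clear Rrm2 signal.

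**Figure D2:**
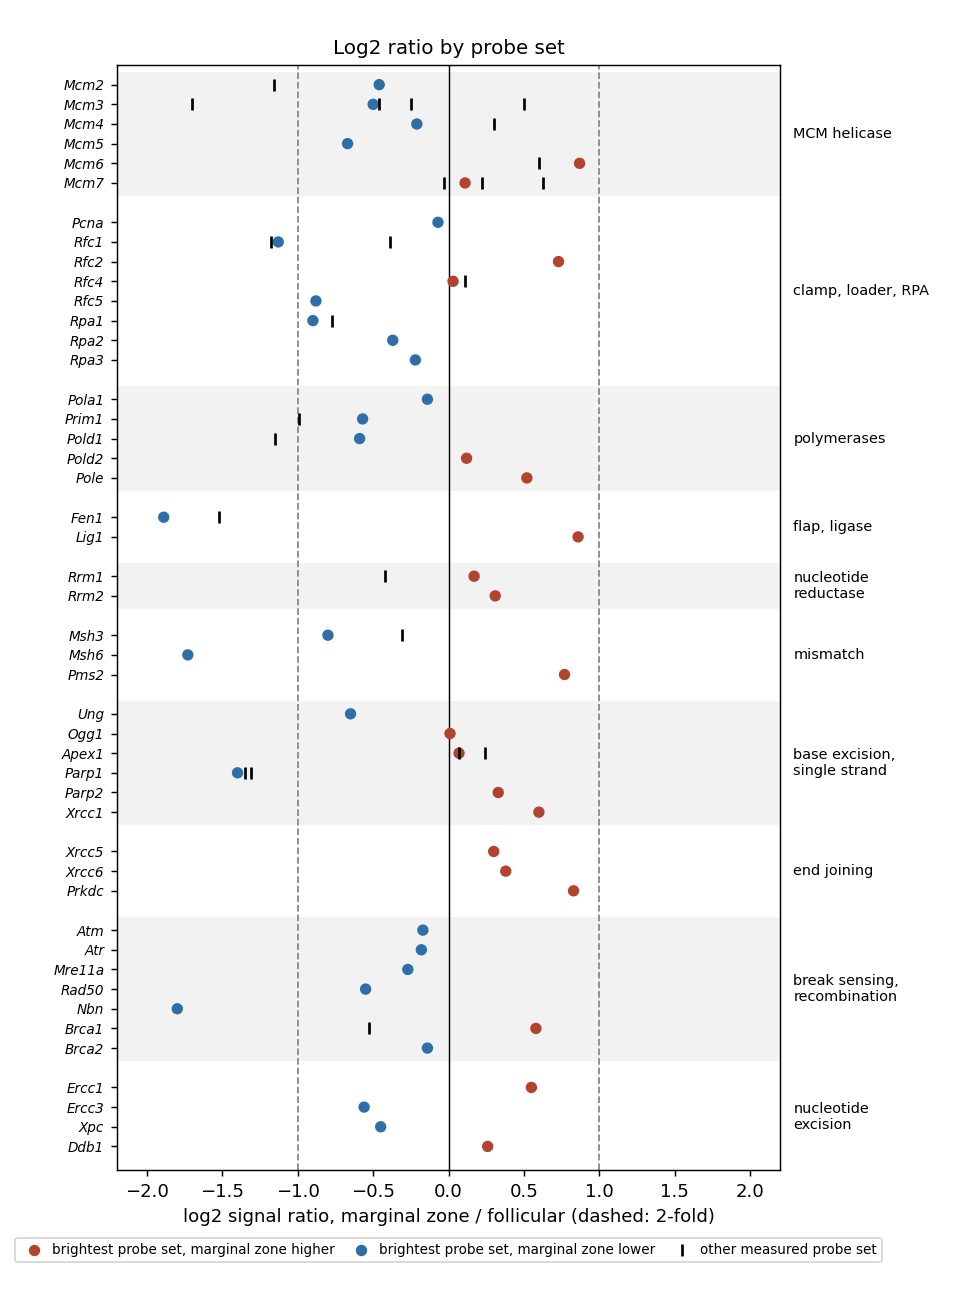
Log2 of the marginal zone signal over the follicular signal for the 46 measured genes by role, with a point for the brightest probe set and a bar for every other measured probe set, and dashed lines at 2-fold. Fen1, Parp1 and Rfc1 keep their side with every probe set, while Mcm3, Mcm4, Mcm7, Rrm1 and Brca1 have probe sets on both sides of 0.

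Mismatch repair was represented by 3 measured genes, 2 lower and 1 higher in marginal zone cells. Msh6, which recognises base mismatches, was at 24.8 in marginal zone and 82.6 in follicular cells, 3.32-fold lower in marginal zone cells. With a floor at the 75th percentile, a signal of 45.7, its log2 ratio was -0.85, since the marginal zone value is then raised to the floor. Msh3, which recognises larger loops, was at 14.3 in marginal zone and 24.8 in follicular cells (-0.80), with a second measured probe set at -0.31. Pms2, the nuclease subunit that acts after recognition, was at 36.7 in marginal zone and 21.5 in follicular cells, 1.71-fold higher in marginal zone cells. Both recognition genes were lower in marginal zone cells and the downstream gene higher, each by 1 array per population.

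Base excision and single-strand break repair had 6 measured genes with a median of 0.04. Parp1, the poly(ADP-ribose) polymerase that detects strand breaks, was at 101.7 in marginal zone and 267.9 in follicular cells, 2.63-fold lower in marginal zone cells. Its other probe sets gave 73.3 in marginal zone and 186.3 in follicular cells, and 34.1 in marginal zone and 84.9 in follicular cells. The 3 ratios lay between -1.40 and -1.31, closer together than the SD of 0.43 between measured probe sets of 1 gene over the 2622 genes that have several. Parp2, a relative of Parp1 that also responds to breaks, was at 93.3 in marginal zone and 74.1 in follicular cells (0.33). Xrcc1, the scaffold that PARP activity recruits, was at 57.8 in marginal zone and 38.2 in follicular cells, 1.51-fold higher in marginal zone cells. Parp1 was thus the one strand-break gene of the 3 that was lower in marginal zone cells.

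Among glycosylases, Ung, which removes uracil and acts at antibody genes, was at 49.3 in marginal zone and 77.6 in follicular cells, 1.57-fold lower in marginal zone cells. Ogg1, which removes oxidised guanine, was at 25.2 in marginal zone and 25.1 in follicular cells (0.01). Apex1, the nuclease that cuts the abasic site they leave, was at 493.0 in marginal zone and 468.7 in follicular cells (0.07). The 3 probe sets of Apex1 ran from 0.07 to 0.24. Ogg1 and Apex1 were thus nearly equal in this pair.

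Breaks of both strands are repaired by end joining or by recombination, and a difference between these arms was not tested. All 3 measured end-joining genes were higher in marginal zone cells, as were 3677 of the 7695 genes, and none was past 2-fold. Prkdc, the catalytic subunit of DNA-dependent protein kinase, was at 93.0 in marginal zone and 52.4 in follicular cells, 1.77-fold higher in marginal zone cells. Its Ku partners bind the broken ends: Xrcc6 (Ku70) was at 19.0 in marginal zone and 14.7 in follicular cells (0.38). Xrcc5 (Ku80) was at 28.6 in marginal zone and 23.2 in follicular cells (0.30). All 3 subunits of the kinase thus had the same sign in this pair. The follicular value of Xrcc6 was close to the floor. The ratios of Xrcc6 and Xrcc5 were under the SD of 0.43 between probe sets of a gene.

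The MRN complex senses breaks and activates the kinase Atm. Each of its subunits had the lower signal in marginal zone cells, as had 52.2% of all measured genes. Nbn, its signalling subunit, was at 34.1 in marginal zone and 118.9 in follicular cells, 3.48-fold lower in marginal zone cells, and 41 other genes of the whole table had a ratio as low. Rad50, its ATPase, was at 21.7 in marginal zone and 31.8 in follicular cells (-0.55). Mre11a, its nuclease, was at 15.3 in marginal zone and 18.5 in follicular cells (-0.27), both close to the floor. Only Nbn passed 2-fold, by its 1 probe set. The kinases differed little: Atm was at 57.4 in marginal zone and 64.5 in follicular cells (-0.17), and Atr, which answers stalled forks, at 39.7 in marginal zone and 45.0 in follicular cells (-0.18).

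The recombination genes Brca1 and Brca2 were near the floor. Brca1 was at 19.0 in marginal zone and 8.3 in follicular cells by 1 probe set (0.58, against the floor) and at 12.2 in marginal zone and 18.3 in follicular cells by another (-0.53). Brca1 therefore had no settled direction. Brca2, which loads the recombinase, was at 16.2 in marginal zone and 17.9 in follicular cells (-0.14).

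Nucleotide excision repair, which removes bulky lesions, had 4 measured genes, 2 higher and 2 lower in marginal zone cells and 0 past 2-fold. Ercc1, part of the nuclease that cuts on the 5′ side, was at 26.5 in marginal zone and 18.1 in follicular cells (0.55). Ddb1, the adaptor of a ubiquitin ligase that finds ultraviolet damage, was at 105.9 in marginal zone and 88.6 in follicular cells (0.26). Xpc, the first damage sensor, was at 15.8 in marginal zone and 21.6 in follicular cells (-0.45). Ercc3, a helicase of TFIIH that opens the helix, was at 60.2 in marginal zone and 88.6 in follicular cells (-0.56). The median of the pathway was -0.10.

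Set side by side, the pathways had medians of -0.21 for replication (23 genes), -0.80 for mismatch repair (3), 0.04 for base excision repair (6), -0.15 for double-strand break repair (10) and -0.10 for nucleotide excision repair (4), against -0.03 for all measured genes. At least 2-fold lower in marginal zone cells were 2 of 23 replication genes and 3 of 23 repair genes, against 4.86% of all measured genes. The mismatch repair median rests on Msh3 alone, the middle of 3 genes. Each pathway but nucleotide excision repair held a member past 2-fold, and within each pathway both signs occurred. Of the 23 members that reached 45.7, the 75th percentile of all values, on an array, 5 were at least 2-fold lower in marginal zone cells, against 5.87% of the 3898 genes chosen in the same way. No test of these differences could be made with 1 array per population.

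**Figure D3:**
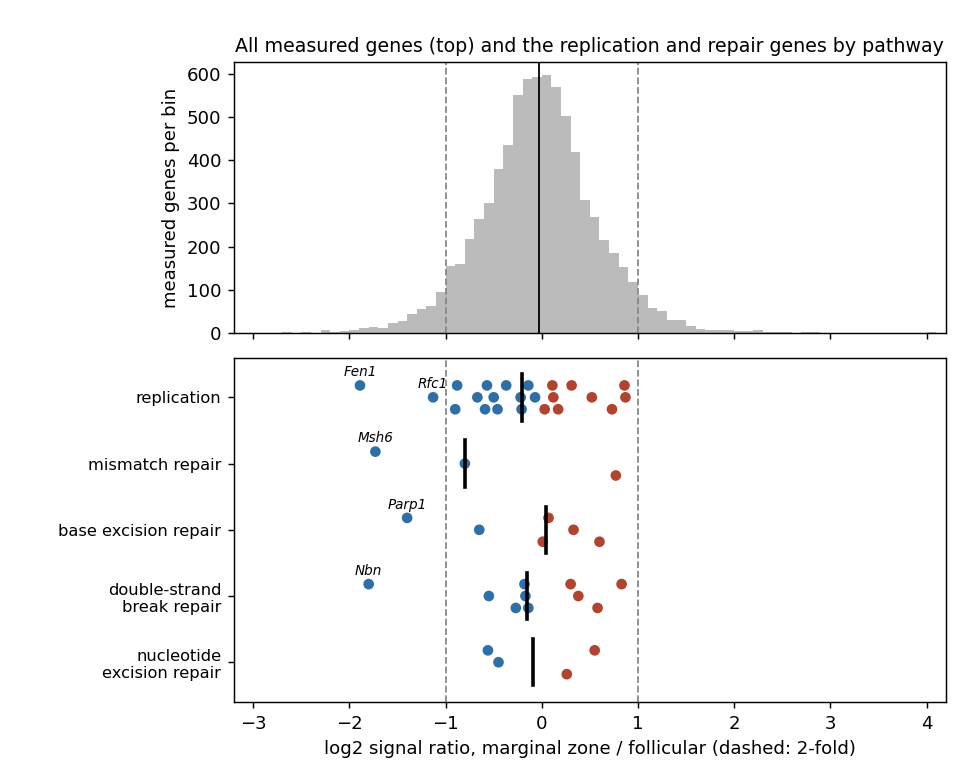
Top, number of measured genes per bin of log2 marginal zone over follicular signal, with the median of -0.03 as a line. Bottom, the 46 replication and repair genes by pathway on the same axis, 1 point per gene and a bar at the pathway's median; the 5 named genes past the dashed 2-fold line all lie on the follicular side.

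Agreement between probe sets of a gene was the closest thing to a repeat measurement, and it covers probe behaviour only. Of the 46 members, 16 had several measured probe sets, and in 11 of these all had the same sign. The 5 with both signs were Mcm3, Mcm4, Mcm7, Rrm1 and Brca1, none of them past 2-fold by the brightest probe set. Of the 5 members past 2-fold, Fen1, Parp1 and Rfc1 had several probe sets of the same sign, and Msh6 and Nbn had 1 each.

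Upstream sequences are printed for the 3 lowest genes past 2-fold that have a single window in the RefSeq promoter table, and for the highest and lowest MCM subunit found there. They show what the windows of these 3 genes and of this pair of MCM genes hold. Fen1, which has more than a single window, and Nbn, which has no entry, are past 2-fold but not printed. Of the 49 members, 39 had an entry. The 250 bases before the start were searched on both strands for the E2F-type letters TTTGGCGC, TTTGCCGC, TTTCGCGC and TTTCCCGC and for CCAAT. Sequences run 5′ to 3′ on the gene's strand, from RefSeq on GRCm38.p6, and capitals mark the matches. The window of Msh6 is chr17:87974800-87975049 (+ strand), that of Parp1 chr1:180568641-180568890 (+ strand) and that of Rfc1 chr5:65335640-65335889 (- strand). The window of Mcm6 is chr1:128359706-128359955 (- strand) and that of Mcm5 chr8:75109259-75109508 (+ strand).
Msh6: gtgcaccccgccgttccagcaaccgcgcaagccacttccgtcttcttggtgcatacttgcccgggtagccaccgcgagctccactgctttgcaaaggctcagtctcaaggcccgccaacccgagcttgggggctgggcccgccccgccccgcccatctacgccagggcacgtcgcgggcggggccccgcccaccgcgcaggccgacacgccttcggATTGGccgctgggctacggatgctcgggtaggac
Parp1: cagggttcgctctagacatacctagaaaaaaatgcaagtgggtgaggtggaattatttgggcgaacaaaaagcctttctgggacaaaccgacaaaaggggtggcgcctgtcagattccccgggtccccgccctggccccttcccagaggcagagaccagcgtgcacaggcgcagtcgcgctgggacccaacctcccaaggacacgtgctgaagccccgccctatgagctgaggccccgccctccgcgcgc
Rfc1: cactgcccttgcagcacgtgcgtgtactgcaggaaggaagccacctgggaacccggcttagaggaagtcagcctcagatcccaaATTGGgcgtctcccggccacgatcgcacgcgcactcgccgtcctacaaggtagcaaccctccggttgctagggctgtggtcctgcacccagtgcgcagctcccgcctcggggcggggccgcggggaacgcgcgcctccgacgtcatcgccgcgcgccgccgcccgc
Mcm6: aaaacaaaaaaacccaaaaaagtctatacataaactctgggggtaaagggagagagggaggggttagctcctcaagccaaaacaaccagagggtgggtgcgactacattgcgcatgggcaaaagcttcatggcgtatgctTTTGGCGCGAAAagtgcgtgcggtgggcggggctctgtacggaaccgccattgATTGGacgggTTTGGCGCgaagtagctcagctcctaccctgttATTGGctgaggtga
Mcm5: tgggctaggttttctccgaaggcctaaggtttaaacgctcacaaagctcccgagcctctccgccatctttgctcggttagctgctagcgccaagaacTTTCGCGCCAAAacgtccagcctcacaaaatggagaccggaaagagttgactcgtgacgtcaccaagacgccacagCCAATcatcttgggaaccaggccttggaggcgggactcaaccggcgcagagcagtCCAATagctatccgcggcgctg

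The E2F-type letters occurred before the start of 7 of the 39 members (17.9%) and of 2.16% of the 27025 genes in the table, and CCAAT before 25 members (64.1%) and 37.5% of genes. The members with E2F-type letters were Mcm5, Mcm6, Mcm7, Pola1, Msh3, Brca2 and Xrcc6. Mcm6 had 3 matches, of which the pair between 110 and 99 bases before the start overlap, and Mcm5 had 2 that overlap between 153 and 142 bases before the start. Both genes also had 2 CCAAT matches. Of the 5 MCM genes with a window, Mcm6 (0.87), Mcm7 (0.11) and Mcm5 (-0.67, with the marginal zone signal under the floor) had E2F-type letters, and Mcm2 (-0.46) and Mcm3 (-0.50) had 0 matches. Whether the letters go with the direction was not tested. The windows of Msh6 and Rfc1 held 1 CCAAT match each and that of Parp1 held 0 of either kind. Those of Fen1, not printed, also held 0 of either kind. A match is a run of letters in this window and not a measured binding site.

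Of 153 further genes of the same pathways, 93 were measured, with a median of -0.07, close to the -0.03 of all genes. Of the 93, 5 were past 2-fold on the marginal zone side and 5 on the follicular side, against 4.39% and 4.86% of all measured genes. These genes describe the surroundings of the members, and their share past 2-fold was near that of the array.

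Origin licensing and firing had 15 measured genes, all within 2-fold, with a median of -0.07. Cdt1, which helps load the MCM ring, was at 1510.5 in marginal zone and 2001.6 in follicular cells (-0.41), with a second probe set at -0.55. Gmnn, the geminin that blocks Cdt1, was at 33.8 in marginal zone and 58.6 in follicular cells (-0.80). Loader and inhibitor thus both had the lower signal in marginal zone cells. Of 18 further fork genes with a median of -0.13, Tipin, which stabilises stalled forks, was past 2-fold, at 26.5 in marginal zone and 66.6 in follicular cells, 2.51-fold lower in marginal zone cells. Pold4, the small subunit of polymerase delta, was at 77.7 in marginal zone and 46.9 in follicular cells (0.73).

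Nucleotide supply had 9 measured genes with a median of 0.57. Among them 2 were at least 2-fold higher and 2 at least 2-fold lower, against 9.25% of all genes past 2-fold either way. Ctps, which makes CTP, was at 272.7 in marginal zone and 116.6 in follicular cells, 2.34-fold higher in marginal zone cells. Nme1, a nucleoside diphosphate kinase, was at 220.0 in marginal zone and 97.4 in follicular cells, 2.26-fold higher in marginal zone cells. Samhd1, which breaks down deoxyribonucleotides, was at 140.8 in marginal zone and 463.1 in follicular cells, 3.29-fold lower in marginal zone cells. The list thus held genes past 2-fold on both sides. Dck, a salvage kinase, was at 43.8 in marginal zone and 88.3 in follicular cells, 2.01-fold lower in marginal zone cells, but its second measured probe set was at 0.31.

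Other base excision genes had a median of 0.09 over 6 genes. Mpg, a glycosylase for alkylated bases, was at 46.9 in marginal zone and 22.8 in follicular cells, 2.05-fold higher in marginal zone cells. Parp3 was at 58.8 in marginal zone and 36.8 in follicular cells (0.68), with a second probe set at -0.03. Other mismatch repair genes gave 0 measured of 5 listed. Among 5 other end-joining genes (median 0.28), Trp53bp1, which protects broken ends during class switching, was at 264.2 in marginal zone and 205.2 in follicular cells (0.36). Its second probe set gave 0.40.

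Other nucleotide excision genes had a median of -0.13 over 12 genes, all within 2-fold. Rad23b, a partner of Xpc, was at 237.3 in marginal zone and 154.6 in follicular cells (0.62), and Ccnh, a cyclin of TFIIH, at 254.1 in marginal zone and 173.1 in follicular cells (0.55). Translesion and antibody mutation genes had a median of 0.18 over 6 genes. Rev1 was at 62.4 in marginal zone and 47.8 in follicular cells (0.38) and Rev3l, the catalytic subunit of polymerase zeta, at 424.2 in marginal zone and 410.9 in follicular cells (0.05). None of the 6 reached 2-fold. Of 8 E2F and pocket protein genes (median -0.31), Tfdp1, the dimer partner of E2F factors, was at 71.2 in marginal zone and 25.8 in follicular cells, 2.76-fold higher in marginal zone cells. Rb1, which restrains E2F, was at 178.2 in marginal zone and 204.5 in follicular cells (-0.20).

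**Figure D4:**
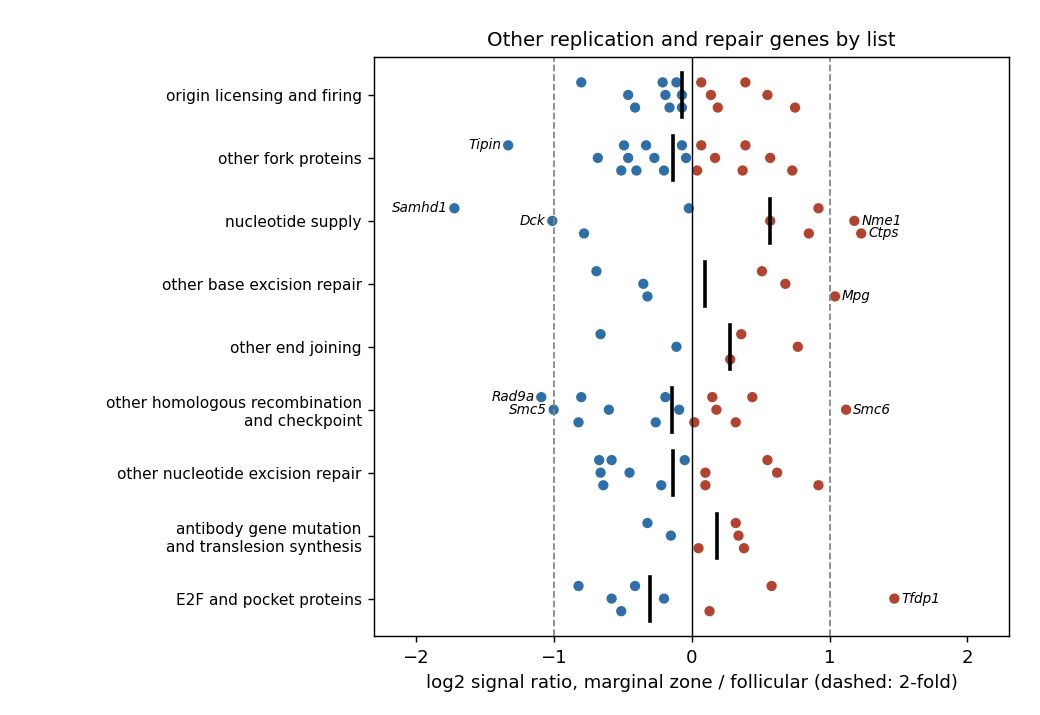
Log2 of the marginal zone signal over the follicular signal for 93 other replication and repair genes by list, 1 point per gene, a bar at each list's median and dashed lines at 2-fold. The 5 named genes on the marginal zone side and the 5 on the follicular side are those past 2-fold.

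Markers of cycling cells were mostly near or under the floor, with 9 of 20 measured. Their summed signal was 189.8 in marginal zone and 143.5 in follicular cells and their median 0.18. Most of the 9 were under the floor on the marginal zone or the follicular array. These, Mki67 and Ccna2 among them, counted as measured only through the other array, so that filter shaped the sum and the median. Mki67, a protein of cycling cells, was at 50.1 in marginal zone and 9.4 in follicular cells, a lower bound of 3.95-fold on the marginal zone side, and Ccna2, the S and G2 cyclin, at 31.6 in marginal zone and 9.2 in follicular cells, a bound of 2.49-fold, with its other probe set at 0.20. Cdc20, which drives exit from mitosis, was at 41.0 in marginal zone and 45.0 in follicular cells. Cdk1, Ccnb2, Plk1, Bub1, Bub1b, Aurkb, Tpx2, Ccne1, Ccne2 and Cenpf were at or under the floor on both arrays. The part of cycling cells in the ratios of the members was not tested.

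Of the other marker lists, macrophage and monocyte genes summed to 209.6 in marginal zone and 83.8 in follicular cells, with 9 of 16 measured. All 9 were higher in marginal zone cells, as were 3677 of the 7695 measured genes. Most of the 9, Cd5l among them, were under the floor in follicular cells. They counted as measured only through the marginal zone array, so that filter set their direction. Csf1r, a receptor of macrophages and monocytes, was at 42.5 in marginal zone and 17.3 in follicular cells, with probe sets from 0.17 to 1.7. Cd5l was at 26.7 in marginal zone and 11.1 in follicular cells, and Lyz2 at 25.2 in marginal zone and 12.9 in follicular cells. Plasma cell genes (7 of 10 measured) summed to 1367.9 in marginal zone and 1079.3 in follicular cells. Xbp1, which makes most of that difference, was at 659.0 in marginal zone and 396.6 in follicular cells, with probe sets from -0.98 to 0.73. Irf4 was at 527.1 in marginal zone and 532.4 in follicular cells, and Slamf7 at 78.7 in marginal zone and 45.7 in follicular cells. Sdc1, a surface marker of plasma cells, was at 4.4 in marginal zone and 68.3 in follicular cells, at least 5.39-fold lower in marginal zone cells. Its measured probe sets ran from -2.43 to -0.32. Prdm1 was at 30.9 in marginal zone and at 12.7, close to the floor, in follicular cells, 2.43-fold higher in marginal zone cells. Derl3 was at 39.9 in marginal zone and 3.3 in follicular cells, a bound of 3.15-fold on the marginal zone side. Of the 7 plasma cell genes, 5 were higher and 2 lower in marginal zone cells, where 52.2% of all measured genes were lower. Their median was 0.73. T and NK cell genes (Cd3e, Il7r and Cd4 measured, of 13) summed to 8.2 in marginal zone and 45.3 in follicular cells, neutrophil genes (Ngp, S100a9 and Elane, of 8) to 33.1 in marginal zone and 35.5 in follicular cells, and erythroid genes (Epor, Klf1 and Hba-a1, of 9) to 18.8 in marginal zone and 52.8 in follicular cells. Bcl6 was the 1 measured gene of 8 for germinal centre cells, at 203.1 in marginal zone and 549.2 in follicular cells. Its log2 ratio was -1.44 by that probe set and -0.38 by the other. All measured T and NK cell and erythroid genes were under the floor in marginal zone cells. They counted as measured only through the follicular array, so that filter set the direction of their sums. Each measured neutrophil gene was also under the floor in marginal zone or in follicular cells, so their sums give no direction. None of the measured markers was at 0, and the part of other cells in the members' ratios was not tested.

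**Figure D5:**
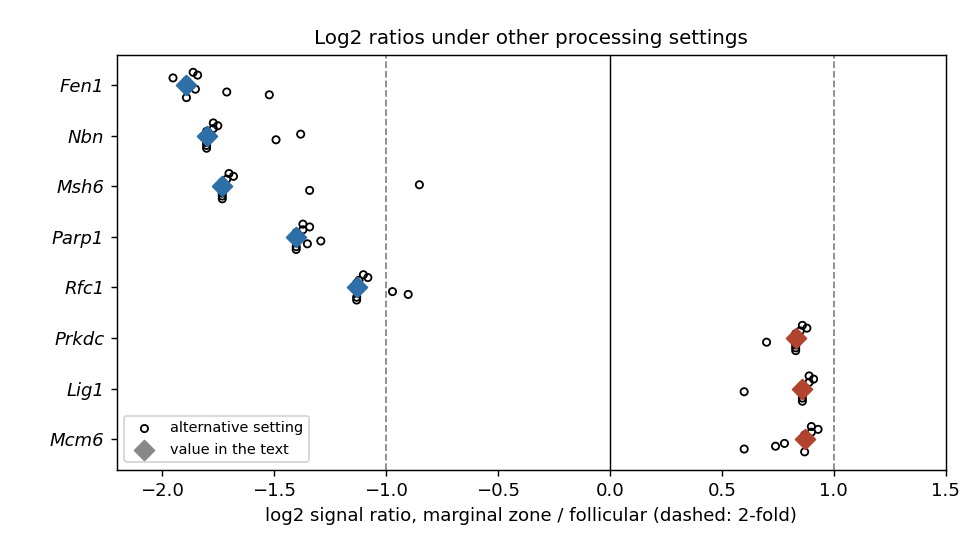
Log2 of the marginal zone signal over the follicular signal for the 5 genes past 2-fold and the 3 highest members, with a diamond for the value in the text and an open circle for each other processing setting that measured the gene. Fen1, Nbn and Parp1 stay past the dashed 2-fold line in all 10 settings, and Prkdc, Lig1 and Mcm6 never reach it.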

How the data were processed

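Expression was measured on 2 Affymetrix arrays, 1 per population. The authors deposited linear intensities, MAS5 signals per the submitters' processing notes, whose version and scaling target were not given in the sources used here. From 22626 probe sets, the 20380 annotated to 1 gene were used (691 list several, 1555 are not listed). Each array was scaled to the same mean after trimming 2% at each end (factors 0.99 for marginal zone and 1.01 for follicular cells), floored at 12.7, and each gene was represented by its measured probe set of highest mean log2 signal. All 47 members with such a probe set were found by Entrez identifier in RefSeq (GRCm38.p6).

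Members and lists were chosen with earlier results of these data known. All 49 members are accounted for. Of other lists, genes past 2-fold and the 2 with the largest absolute ratio at a signal of at least 45.7 are named, and of each marker list the 3 brightest. The unmeasured cycling genes, the sorting antigens, Blk, Sdc1, Derl3 and Prdm1 are named beyond that rule, after their values were seen. Steps were tested on simulated arrays. Alternatives were 3 scalings, 4 treatments of the floor, 3 probe-set rules and thresholds of 1.5-fold and 3-fold. Counts without genes whose probe sets differ in sign were added after seeing the data. Python 3.11.15, numpy 2.4.6 and pandas 2.3.3 were used. The number of arrays limits the precision.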

Additional observations from a re-analysis of the deposited data

How the results depend on the processing

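Under the 10 other settings of scaling, floor and probe-set choice, 0 members passed 2-fold on the marginal zone side and 4 to 7 on the follicular side, against 5 as reported. The share of all genes at least 2-fold lower ran from 3.02% to 12.5% over these settings: with the floor at the 25th percentile it was 12.5%, beside 5 of 47 members, and with no floor 11.3%, beside 5 of 46, so the members' excess over the array was absent there. At a threshold of 1.5-fold the counts were 6 higher (13.6% of all genes) and 11 lower (15.8%), and at 3-fold 0 higher and 3 lower (0.871%). Fen1, Nbn and Parp1 were past 2-fold in all 10 settings; Msh6 was past it in 9 and at -0.85 with the floor at 45.7, and Rfc1 at -0.90 with the mean of its probe sets and -0.97 with a pseudocount. Without probe sets of shared or cross-matching suffix, Mcm2 (-1.16) and Pold1 (-1.15) also passed 2-fold. Of 46 members, 43 kept their sign wherever measured. The others were Mcm4 (0.05 with the mean, 0.30 without those probe sets), Rrm1 (-0.12 with the mean) and Brca1 (down to -0.59 with a lower floor). The median over all members ran from -0.37 to -0.10, and that of replication from -0.42 to -0.14. Without the 5 genes whose probe sets differ in sign, an alternative chosen after seeing the data, 5 lower and 0 higher genes were counted. No paired analysis was possible because each population has 1 array. The counts of higher and lower members include genes with signals near the floor, whose order is uncertain. Mcm5, Rrm2, Brca1, Brca2 and Mre11a are among them.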

Other observations

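The partners Smc5 and Smc6, which form 1 complex that aids recombination and fork restart, lay on opposite sides in this pair. Smc6 was at 866.1 in marginal zone and 398.2 in follicular cells, a log2 ratio of 1.12, and its 5 probe sets ran from 0.90 to 1.88. Smc5 was at 74.9 in marginal zone and 149.9 in follicular cells, which put it at the 2-fold threshold on the follicular side; the second probe set gave -0.62. All 7 probe sets thus kept the side of their gene. Rad9a, a subunit of the checkpoint clamp that Atr signalling uses, was at 22.4 in marginal zone and 47.7 in follicular cells, 2.13-fold lower in marginal zone cells. These genes belong to a list of 14 measured recombination and checkpoint genes with a median of -0.14. Of the 14, 1 was at least 2-fold higher and 2 at least 2-fold lower in marginal zone cells. The shares of all measured genes were 4.39% higher and 4.86% lower. Samhd1 had 4 measured probe sets between -1.72 and -0.70. There were no replicate arrays with which these differences could be tested.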
